A study of Homo sapiens with 18 samples.

Results

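Receptor tyrosine kinases other than KIT and PDGFRA were followed across imatinib and JQ1 treatment of GIST-T1, a human cell line from a gastrointestinal stromal tumor that depends on the kinase KIT. The members are 50 receptor genes taken by name from the receptor families, with no measured value used in the choice, out of 23621 gene entries in the table. RNA was sequenced in 18 libraries in 6 groups of 3. Cells were given the solvent DMSO (no time is stated), imatinib or JQ1 alone for 6 h or 24 h, or the combination for 24 h, with each drug at 500 nM. Imatinib is a small-molecule inhibitor of KIT, PDGFRA and a few related kinases, and JQ1 displaces BET bromodomain proteins from acetylated chromatin. All groups are 1 cell line, and no line without KIT dependence was analysed here.

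Receptor tyrosine kinases are single-pass membrane proteins that bind a ligand outside the cell, pair up, and phosphorylate tyrosines inside it, from where adaptors carry the signal to the RAS-MAPK and PI3K pathways. Most gastrointestinal stromal tumors are driven by activated KIT or PDGFRA, and other receptors, among them FGF receptors, have been studied in these tumors as routes around KIT inhibition. Some members, such as PTK7, RYK, EPHB6 and EPHA10, have a kinase domain thought to be inactive, and ERBB3 signals mainly as the partner of another ERBB receptor.

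Promoters are shown for 3 receptors that the results below turn on. EPHA1 fell in every comparison with DMSO, EPHB4 was the receptor with the next largest fall after 6 h of JQ1, and PDGFRB was lower with JQ1 than with imatinib at 24 h on both scales. Each sequence is the 250 bases before the start site in RefSeq on GRCh38.p14, read 5′ to 3′ on the minus strand of the gene, and capitals mark the GC box GGGCGG or its reverse complement CCGCCC, a site bound by SP-family factors. EPHA1 lies at chr7:143408857-143409106, EPHB4 at chr7:100827524-100827773 and PDGFRB at chr5:150155846-150156095.
EPHA1: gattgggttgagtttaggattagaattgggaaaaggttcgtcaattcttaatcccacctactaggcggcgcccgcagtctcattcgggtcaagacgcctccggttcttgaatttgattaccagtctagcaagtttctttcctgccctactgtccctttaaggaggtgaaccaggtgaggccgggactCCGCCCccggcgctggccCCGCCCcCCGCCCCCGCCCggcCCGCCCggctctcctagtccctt
EPHB4: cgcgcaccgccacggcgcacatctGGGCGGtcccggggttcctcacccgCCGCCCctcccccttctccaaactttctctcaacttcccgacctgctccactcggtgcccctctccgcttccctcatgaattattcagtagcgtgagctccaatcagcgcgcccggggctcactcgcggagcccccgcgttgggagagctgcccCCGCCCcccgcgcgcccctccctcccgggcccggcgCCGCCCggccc
PDGFRB: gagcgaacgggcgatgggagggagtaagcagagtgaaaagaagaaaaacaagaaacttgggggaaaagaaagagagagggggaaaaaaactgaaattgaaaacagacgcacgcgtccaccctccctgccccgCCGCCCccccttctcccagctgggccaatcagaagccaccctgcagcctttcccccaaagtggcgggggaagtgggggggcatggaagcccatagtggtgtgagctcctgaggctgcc
The EPHA1 window held 5 GC boxes, the EPHB4 window 4 and the PDGFRB window 1. The windows of INSR and ROR2, which were not called with imatinib on the deposited scale, also held 4 each. The share of G and C was 59.2% for EPHA1, 72.8% for EPHB4 and 58.4% for PDGFRB, where the median of all windows was 58%. Over 35116 RefSeq windows of the same length, 42.6% held a GC box on either strand, against 62.3% of the 77 windows of the 46 members with an entry, and no enrichment test was made. The FOXO core GTAAACA, the ETS core CCGGAAG and the E-box CACGTG, which are in 2.98%, 8.52% and 6.34% of all windows on either strand, were in none of the 3 windows shown. These letters are a description of the windows, and binding was not measured here. ERBB3, FGFR1, EPHA10 and FLT4 are the members without a promoter entry.

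Values are FPKM, which are scaled to gene length, and the deposited table puts them on the scale of ERCC spike-in RNA added in proportion to cell number. Most genes were lower after treatment on this deposited scale: over 12771 tested genes the median log2 change against DMSO was -0.69 with imatinib and -1.0 with JQ1 at 6 h. The 24 h medians were -1.5 for imatinib, -1.49 for JQ1 and -2.05 for the combination. A second, rescaled set of values divides each library by a size factor, the median over genes of the ratio to the geometric mean of all libraries, which brings those medians to between -0.01 and 0.02. A receptor rose or fell where the limma fit gave an adjusted p below 0.05 and a log2 change of at least 1 in size, on the scale named. Log2 changes are of FPKM + 1 and are given ± their standard error, folds are ratios of group means, and group levels are mean ± SD with n = 3. In bulk RNA, fewer cells of a type and less RNA per cell cannot be told apart, and since nothing in the labels tells whether replicate libraries came from different cultures, p-values reflect only their spread, which may be technical. KIT went from 644 ± 125 FPKM in DMSO to 16.3 ± 3.39 with both drugs. All 6 GIST markers were expressed in DMSO, and PRKCQ had a mean of 0.85 FPKM with both drugs. The summed GIST markers ranged from 4200 to 6405 in DMSO and from 173 to 301 with both. In contrast, 4 of 5 endothelial and 4 of 5 leukocyte markers were under 1 FPKM in all 18 libraries. The summed endothelial markers ranged from 3.35 to 3.66 in DMSO and from 0.431 to 0.504 with both drugs, with PECAM1, CDH5, VWF and CLDN5 at 0.298 or less in every library. The summed leukocyte markers ranged from 10.5 to 14.9 in DMSO and from 0.893 to 1.58 with both, nearly all of it CD68, and PTPRC was at most 0.112. The summed epithelial markers, mostly KRT18, ranged from 416 to 663 in DMSO and from 16.5 to 29.4 with both drugs, with CDH1 at most 0.286 and KRT19 at most 0.156. Of the neural and glial markers, TUBB3 had a mean of 187 FPKM in DMSO, 371 after 6 h of JQ1 and 9.48 after 24 h of imatinib, and SOX10 and S100B were at 0.219 or less in every library. The part of KRT18, TUBB3 and CD68 in the receptor results was not tested.

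GIST-T1 cells expressed receptors from most families, and FGFR2 was the most abundant of the 50. In DMSO, 24 receptors had a mean of at least 1 FPKM and 21 had at least 5. FGFR2, a receptor for fibroblast growth factors, read 272.6, 317 and 409 FPKM in the 3 DMSO libraries. PTK7, a WNT pathway co-receptor, read 95.1, 115 and 147, EPHB3, a receptor for B-type ephrins, read 79.7, 98.7 and 126, FGFR1 read 71.0, 83.7 and 117, and RYK, which binds WNT ligands, read 60.7, 80.3 and 93.1. FGFR2 lay above PTK7 in the ranges over libraries, whereas the ranges of PTK7, EPHB3, FGFR1 and RYK each overlapped the next. Within each DMSO library, however, these receptors kept that order from highest to lowest. Below them came EPHA4 at 39.9 ± 7.85 FPKM, EPHB4 at 30.8 ± 6.2, ERBB3 at 26.9 ± 6.41, the collagen receptors DDR2 at 23.2 ± 3.93 and DDR1 at 22.8 ± 5.01, TYRO3 at 15.1 ± 3.43 and EPHA1 at 12.1 ± 1.62. DMSO replicate 3 was the highest and replicate 1 the lowest DMSO library for each of these receptors.

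**Figure D1:**
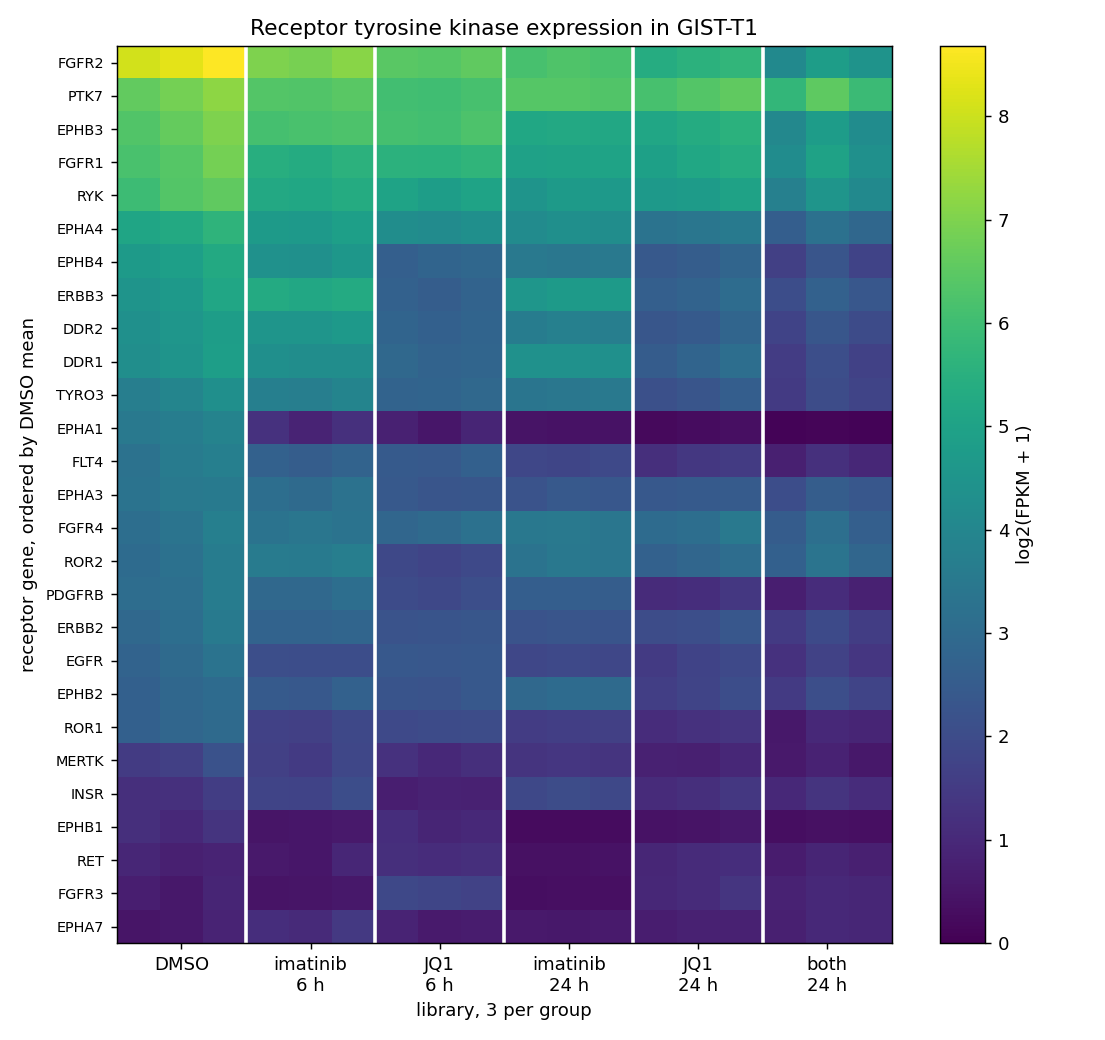
Expression of the 27 tested receptors as log2(FPKM + 1) (color) in each of the 18 libraries (columns, 3 per group), ordered by the DMSO mean. FGFR2 is the brightest gene in DMSO at 333 FPKM, and EPHA1 goes dark in every treated group.

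Of the 50 receptors, 23 were under 1 FPKM in all 18 libraries and were not tested. They include several well-studied growth factor receptors: MET, the hepatocyte growth factor receptor, reached at most 0.432 FPKM, AXL at most 0.256, ALK at most 0.124, and IGF1R, the insulin-like growth factor receptor, at most 0.862. Among the vascular receptors, FLT1 reached at most 0.792 and KDR at most 0.352, whereas FLT4, the receptor for VEGFC, read 10.7 ± 1.91 in DMSO. In 16 of the 23, including CSF1R, FLT3, EPHA2, NTRK2, NTRK3 and ROS1, no library reached 0.2 FPKM, close to the floor near 0.1 that the table gives to genes with little or no signal. The other 27 were tested. FGFR3, EPHA7, EPHB1 and RET, and also EPHA1 (DMSO and 6 h of imatinib), reached a mean of 1 FPKM in only 1 or 2 groups and passed the filter through them, so the counts out of 27 below describe the receptors tested and not all 50. Without a filter on low values all the deposited calls below were kept, but dropping the filter does not alter the log2 change of a gene.

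The summed FPKM of the 50 receptors was lower in every treated group, and its make-up shifted from FGFR2 to PTK7. The sum was 795, 942 and 1208 FPKM in the DMSO libraries, with a mean of 982 ± 209. At 6 h the sum was 572 ± 36.1 with imatinib and 397 ± 23.5 with JQ1. The 24 h sums were 396 ± 10.6 for imatinib, 307 ± 44.0 for JQ1 and 204 ± 57.4 for the combination, and no treated library reached the lowest DMSO library. The total of all genes was lower too, and as a share of the total without MIR1244 the 50 receptors were 0.0722% ± 0.00268 in DMSO, 0.0712% ± 0.00192 and 0.0550% ± 0.00243 at 6 h with imatinib and JQ1, and 0.104% ± 0.00136, 0.0687% ± 0.00140 and 0.0724% ± 0.00241 at 24 h with imatinib, JQ1 and the combination. All 24 h imatinib libraries had a higher share than every DMSO library and all 6 h JQ1 libraries a lower one, and the other 3 treated groups overlapped DMSO. These shares depend on leaving out MIR1244: the DMSO mean of the full total was 2208000 FPKM and 1360000 without it. With both drugs the receptor sum was 0.208 of its DMSO mean, the full total 0.172 and the total without MIR1244 0.207. The first 2 of these ratios were 0.313 and 0.284 with JQ1 at 24 h, and 0.583 and 0.582 with imatinib at 6 h. FGFR2 made up 33.9% ± 0.308 of the sum in DMSO, 22.6% ± 0.415 with imatinib and 21.9% ± 0.0678 with JQ1 at 6 h, and 18.5% ± 0.340, 15% ± 0.558 and 10.6% ± 0.547 at 24 h with imatinib, JQ1 and the combination. The share of PTK7 went the other way, from 12.1% ± 0.138 in DMSO to 20.6% ± 0.735, 26.7% ± 0.05 and 33.0% ± 0.959 in the 3 groups at 24 h. These shares do not depend on how libraries are scaled, and in both genes no library of a 24 h group overlapped DMSO. FGFR2 ranked first in DMSO and both 6 h groups and PTK7 ranked first in all 3 groups at 24 h, each with no overlap with the next receptor. With both drugs the next 3, FGFR1, FGFR2 and EPHB3, overlapped one another at 22.6, 21.5 and 20.0 FPKM.

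**Figure D2:**
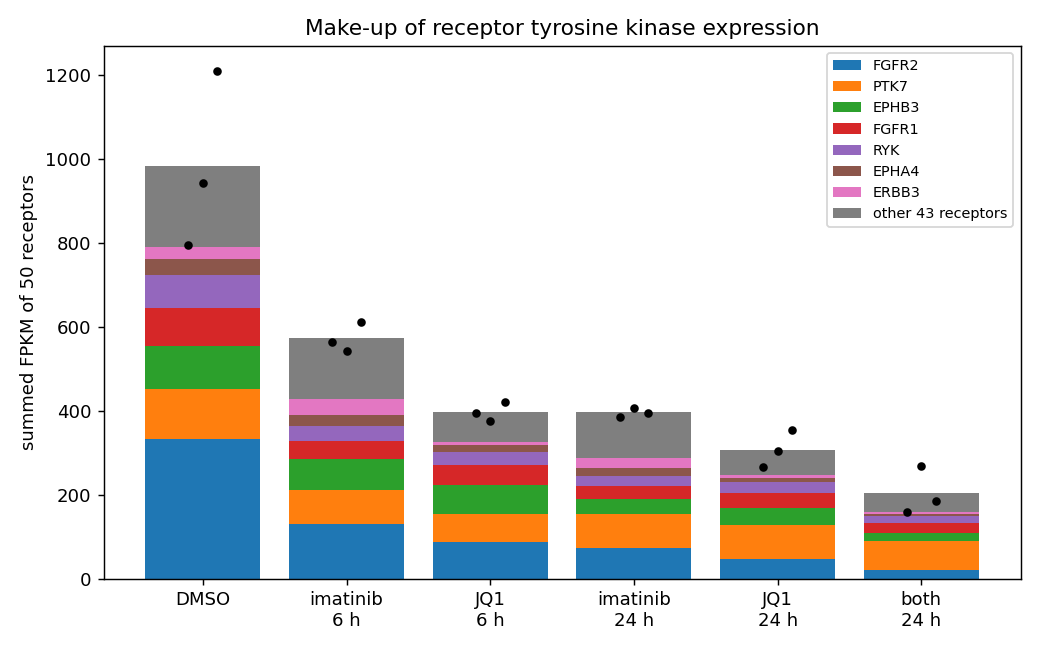
Summed FPKM of the 50 receptors on the deposited scale, as stacked group means (bars, colored by gene) with each library's sum (points). The sum goes from 982 in DMSO to 204 with both drugs, and the FGFR2 segment from 33.9% to 10.6% of it.

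After 6 h of imatinib, 5 of 27 receptors fell and 0 rose on the deposited scale. That is 18.5%, where 20.0% of all tested genes fell and 0.384% rose. EPHA1, a receptor for A-type ephrins, read 10.5, 11.9 and 13.7 FPKM in DMSO and 1.35, 0.824 and 1.31 after 6 h of imatinib. All 3 imatinib libraries lay below all 3 DMSO libraries, and the mean was 10.4-fold lower, a log2 change of -2.60 ± 0.12. EPHA1 passed the filter through DMSO and 6 h of imatinib, so its falls against DMSO are given as a description here and below. FGFR2 read 128, 120 and 140 FPKM after imatinib, 2.58-fold below DMSO with no overlap, a log2 change of -1.34 ± 0.18. ROR1, a WNT5A receptor, fell from 6.19 to 2.33 FPKM.

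FGFR1 and RYK were also called, at log2 changes of -1.03 and -1.04, but single libraries decide those calls. FGFR1 read 42.7, 39.7 and 46.2 FPKM after 6 h of imatinib and RYK read 36.6, 34.7 and 39.4, all below every DMSO library. Without DMSO replicate 3 their changes were -0.84 and -0.90, and without imatinib 6 h replicate 2 they were -0.98 and -0.999, so that either omission leaves 3 calls in place of 5. After rescaling, EPHA1 was the 1 receptor that fell (-1.70 ± 0.08) and 1 rose, where 2.08% of genes fell and 1.22% rose. The riser was ERBB3, a receptor for neuregulins. ERBB3 read 21.7, 25.0 and 34.0 FPKM in DMSO and 38.2, 35.5 and 38.6 after 6 h of imatinib, with all imatinib libraries above DMSO. Its log2 change was 0.49 ± 0.18 on the deposited scale (limma, adjusted p = 0.0169), under the size threshold, and 1.20 ± 0.05 rescaled. The insulin receptor INSR was likewise higher in every imatinib library, at 2.67 ± 0.421 against 1.52 ± 0.380 FPKM, with a log2 change of 0.55 ± 0.13 that is also under the threshold. EPHA7 was the other receptor higher in every 6 h imatinib library, at 1.33 ± 0.357 against 0.576 ± 0.223 FPKM. Its log2 change was 0.56 ± 0.12, and it passed the filter through this group. That makes 3 of 27 receptors higher in every library, where 1.78% of all tested genes were. Since EPHA7 is among the 27 through this group, the count is a description.

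After 6 h of JQ1, 13 of 27 receptors fell and 1 rose on the deposited scale. That is 48.1% falling, where 49.8% of all tested genes fell and 0.642% rose. EPHA1 read 0.741, 0.437 and 0.861 FPKM, 17.7-fold below DMSO. EPHB4, a receptor for ephrin B2, read 25.8, 28.9 and 37.7 in DMSO and 5.23, 5.96 and 6.48 after JQ1. This is 5.23-fold lower with no overlap, a log2 change of -2.19 ± 0.18 (limma, adjusted p = 4.0e-10).

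ERBB3, which was higher with imatinib, read 5.49, 4.85 and 5.81 FPKM after 6 h of JQ1. It was 4.99-fold below DMSO with no overlap, a log2 change of -2.10 ± 0.18 (limma, adjusted p = 1.0e-09). FGFR2 read 86.4, 82.0 and 92.7, or 3.83-fold below DMSO. DDR2 was 4.05-fold below, DDR1 3.64-fold, the WNT5A receptor ROR2 3.45-fold and PDGFRB, a receptor for platelet-derived growth factors, 3.03-fold. The others that fell were RYK, TYRO3, EPHA3, FLT4 and EPHA4, between 2.19-fold and 2.58-fold. The FLT4 change of -1.02 was between -0.99 and -0.92 without DMSO replicate 2 or 3 or JQ1 6 h replicate 1 or 2, and the EPHA4 change of -1.07 was -0.93 without DMSO replicate 3 and 0.031 after rescaling. PDGFRB was at -0.32 after rescaling, which is not called.

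FGFR3 was the 1 receptor that rose, and since it is under 1 FPKM in DMSO and passed the filter through the JQ1 libraries, its change is given as a description. It read 0.643, 0.466 and 0.844 FPKM in DMSO and 2.66, 2.51 and 2.31 after 6 h of JQ1, with no overlap. The log2 change was 1.09 ± 0.11 on the deposited scale and 1.36 ± 0.08 rescaled. After rescaling, 3 receptors fell, EPHA1 (-1.87 ± 0.08), EPHB4 (-1.09 ± 0.07) and ERBB3 (-1.0 ± 0.05), where 2.57% of genes fell and 2.47% rose. The rescaled ERBB3 call rests on the threshold: it was -0.96 without DMSO replicate 3 and -0.99 without JQ1 6 h replicate 2.

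**Figure D3:**
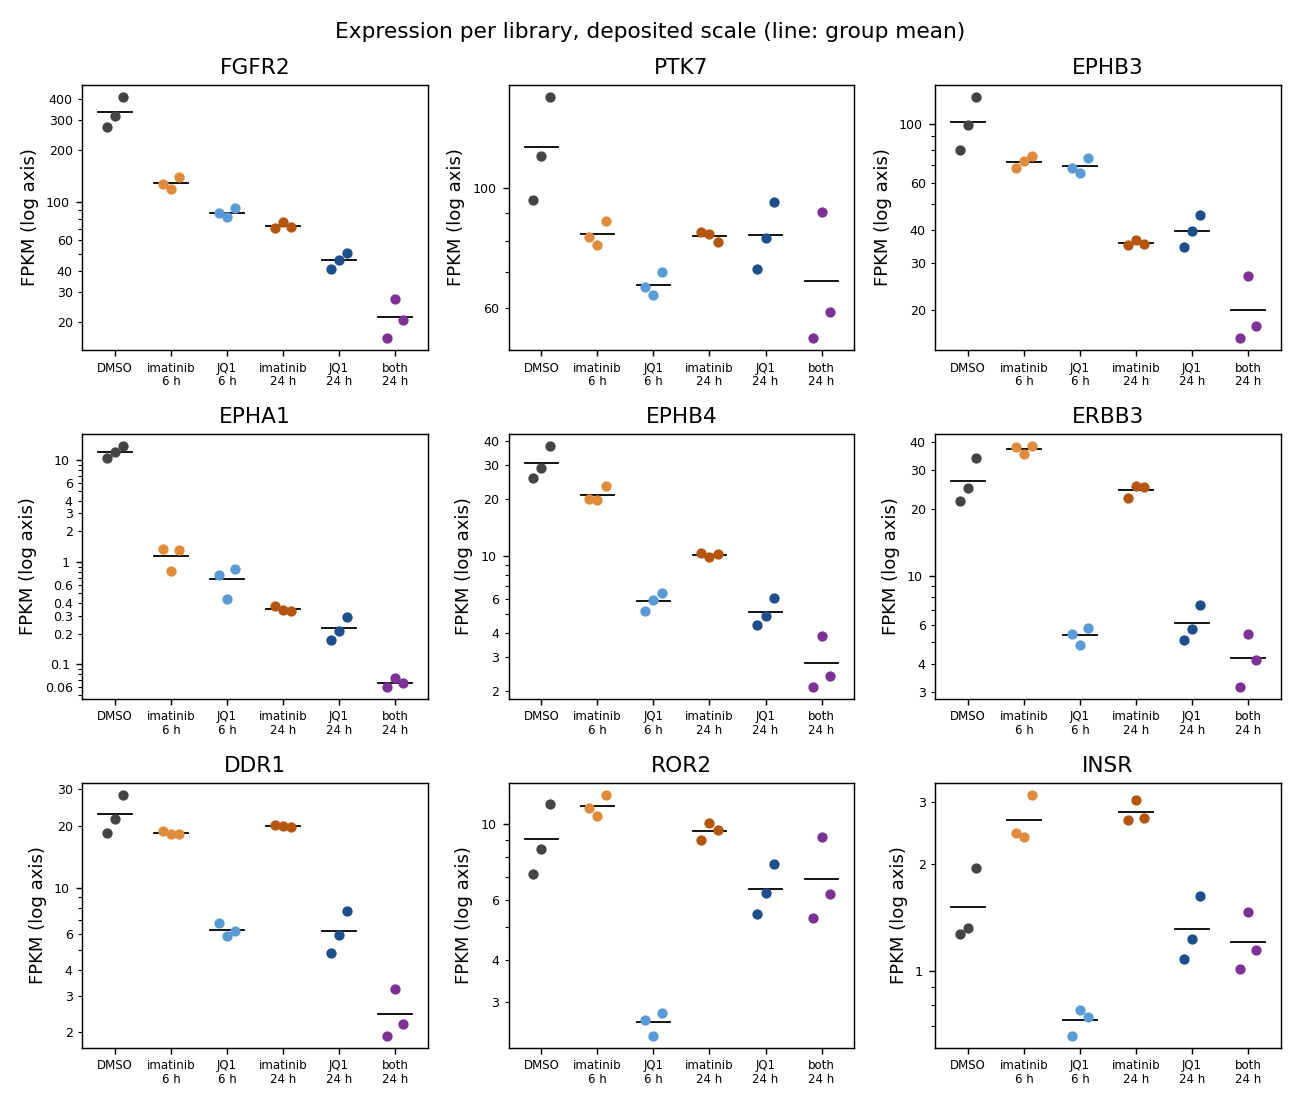
FPKM on a log axis in each library (points) with the group mean (line) for 9 receptors in the 6 groups. ERBB3 stays between 21.7 and 38.6 in DMSO and imatinib and between 3.16 and 7.38 in every group with JQ1, and EPHA1 lies below DMSO in all treated libraries.

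After 24 h of imatinib, 11 of 27 receptors fell and 0 rose on the deposited scale. That is 40.7%, where 72.1% of all tested genes fell and 0.642% rose. The median log2 change of the 27 was -0.88, beside -1.5 for all tested genes. EPHA1 read 0.370, 0.337 and 0.329 FPKM, 34.9-fold below DMSO, a log2 change of -3.27 ± 0.12. FGFR2 read 70.8, 76.6 and 71.6, which is 4.56-fold below DMSO with no overlap, a log2 change of -2.15 ± 0.18.

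FLT4 was 4.06-fold, RYK 3.29-fold, ROR1 3.05-fold, EPHB4 3.01-fold, FGFR1 2.93-fold, EPHB3 2.84-fold and EGFR, the epidermal growth factor receptor, 2.74-fold below DMSO after 24 h of imatinib. RYK read 21.4, 25.8 and 24.0 FPKM, EPHB4 10.4, 9.97 and 10.3, FGFR1 30.5, 30.7 and 31.6, and EPHB3 35.0, 36.7 and 35.6, none of them overlapping DMSO. EPHA3 and EPHA4 were called as well, at 4.05 and 18.2 FPKM, and the EPHA4 change of -1.07 was -0.92 without DMSO replicate 3. After rescaling, 8 of the 11 had the opposite sign: RYK 0.041, ROR1 0.10, EPHB4 0.16, FGFR1 0.22, EGFR 0.23, EPHB3 0.26, EPHA3 0.36 and EPHA4 0.60.

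Another set of receptors overlapped the DMSO range after 24 h of imatinib. Of the 27, 20 had every imatinib library below every DMSO library and 1 had every one above. Of all tested genes, 90.8% lay below in this way and 2.89% above. ERBB3 read 22.4, 25.5 and 25.2 FPKM, inside the DMSO range, with a log2 change of -0.11 ± 0.18. DDR1 read 20.1, 20.0 and 19.6 against 18.4, 21.6 and 28.3 in DMSO, and FGFR4 read 10.2, 10.3 and 9.53 against 7.88, 9.18 and 12.5. ROR2 read 8.98, 10.1 and 9.61 against 7.16, 8.47 and 11.5, and EPHB2 read 6.58, 7.25 and 7.02 against 5.39, 6.40 and 7.21. EPHA7, at 0.494, 0.471 and 0.553 against 0.415, 0.483 and 0.830, was the sixth that overlapped DMSO on the deposited scale. The values of PDGFRB lay below every DMSO library, at 5.02 ± 0.0711 against 9.01 ± 2.20, with a log2 change of -0.71 ± 0.15 (limma, adjusted p = 9.3e-05) that is under the size threshold.

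INSR alone among the 27 was higher in all 3 imatinib libraries, at 2.68, 3.04 and 2.71 FPKM against 1.28, 1.32 and 1.96 in DMSO. Its log2 change was 0.61 ± 0.13 (limma, adjusted p = 9.8e-05), under the size threshold. Of all tested genes, 2.89% had every imatinib library above every DMSO library. After rescaling, INSR, ERBB3, DDR1, FGFR4, ROR2, EPHB2, PTK7 and TYRO3 rose, 8 of 27 in all and without EPHA7 (0.46), and 1 fell, where 8.80% of all genes rose and 8.72% fell. The rescaled log2 changes of the 8 lay between 1.03 for TYRO3, which is a receptor for GAS6 and PROS1, and 1.60 for ROR2. PTK7 itself read 82.9, 82.4 and 79.5 FPKM, below every DMSO library, with a deposited change of -0.52 ± 0.19.

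After 24 h of JQ1, 18 of 27 receptors fell and 0 rose on the deposited scale. That is 66.7%, where 75.3% of all tested genes fell and 0.399% rose. The median log2 change of the 27 was -1.31, beside -1.49 for all tested genes. EPHA1 read 0.174, 0.214 and 0.287 FPKM, close to the table's floor, so no fold is given, and its log2 change was -3.41 ± 0.12. FGFR2 read 40.9, 46.4 and 50.9, or 7.23-fold below, a log2 change of -2.81 ± 0.18 (limma, adjusted p = 4.0e-12).

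PDGFRB read 1.07, 1.22 and 1.63 FPKM after 24 h of JQ1 against 7.54, 7.96 and 11.5 in DMSO, which is 6.89-fold lower with no overlap, and its rescaled change of -0.76 is not called. FLT4 was 6.85-fold lower, and EPHB4, at 4.39, 4.90 and 6.09, was 6.01-fold lower. DDR2 at 4.87 ± 1.07 was 4.77-fold, ROR1 4.60-fold, ERBB3 4.41-fold, EPHA4 4.08-fold, TYRO3 3.71-fold and DDR1 3.69-fold below DMSO. ERBB3 read 5.13, 5.77 and 7.38, and all its JQ1 libraries lay below DMSO.

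EGFR and ERBB2, RYK, FGFR1, EPHB2, EPHB3 and EPHA3 completed the 18 at 24 h of JQ1, each between 2.26-fold and 3.17-fold below DMSO. RYK read 24.0, 26.4 and 31.2 FPKM, FGFR1 29.7, 35.4 and 40.7, and EPHB3 34.4, 39.5 and 45.5. After rescaling, 7 of the 18 had the opposite sign: EGFR 0.034, RYK 0.20, EPHB2 0.27, ERBB2 0.35, FGFR1 0.36, EPHB3 0.36 and EPHA3 0.45. The EPHB2 call, at -1.06, was lost without DMSO replicate 3 (-0.98) and without the JQ1 24 h library that has no number (-0.96). The same omissions ended the calls of ERBB2 (-0.89 and -0.997) and EPHA3 (-0.96 and -0.98), as did leaving out DMSO replicate 2 for EPHA3 (-0.99).

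After rescaling, FGFR2 (-1.12 ± 0.03) and EPHA1 (-2.18 ± 0.08) fell with 24 h of JQ1, and PTK7, FGFR4, ROR2 and FGFR3 rose, where 6.47% of genes fell and 5.25% rose. FGFR3 passed the filter through libraries with JQ1, so its rise is given as a description. PTK7 read 70.9, 81.1 and 94.2 FPKM, and its deposited change was -0.52 ± 0.19. The rescaled FGFR3 rise of 1.01 was 0.96 without DMSO replicate 2 and 0.94 without JQ1 24 h replicate 3. With the sum of all genes except MIR1244 as the scale, FGFR3 and ROR2 had 0.97 and 0.95 and were not called.

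**Figure D4:**
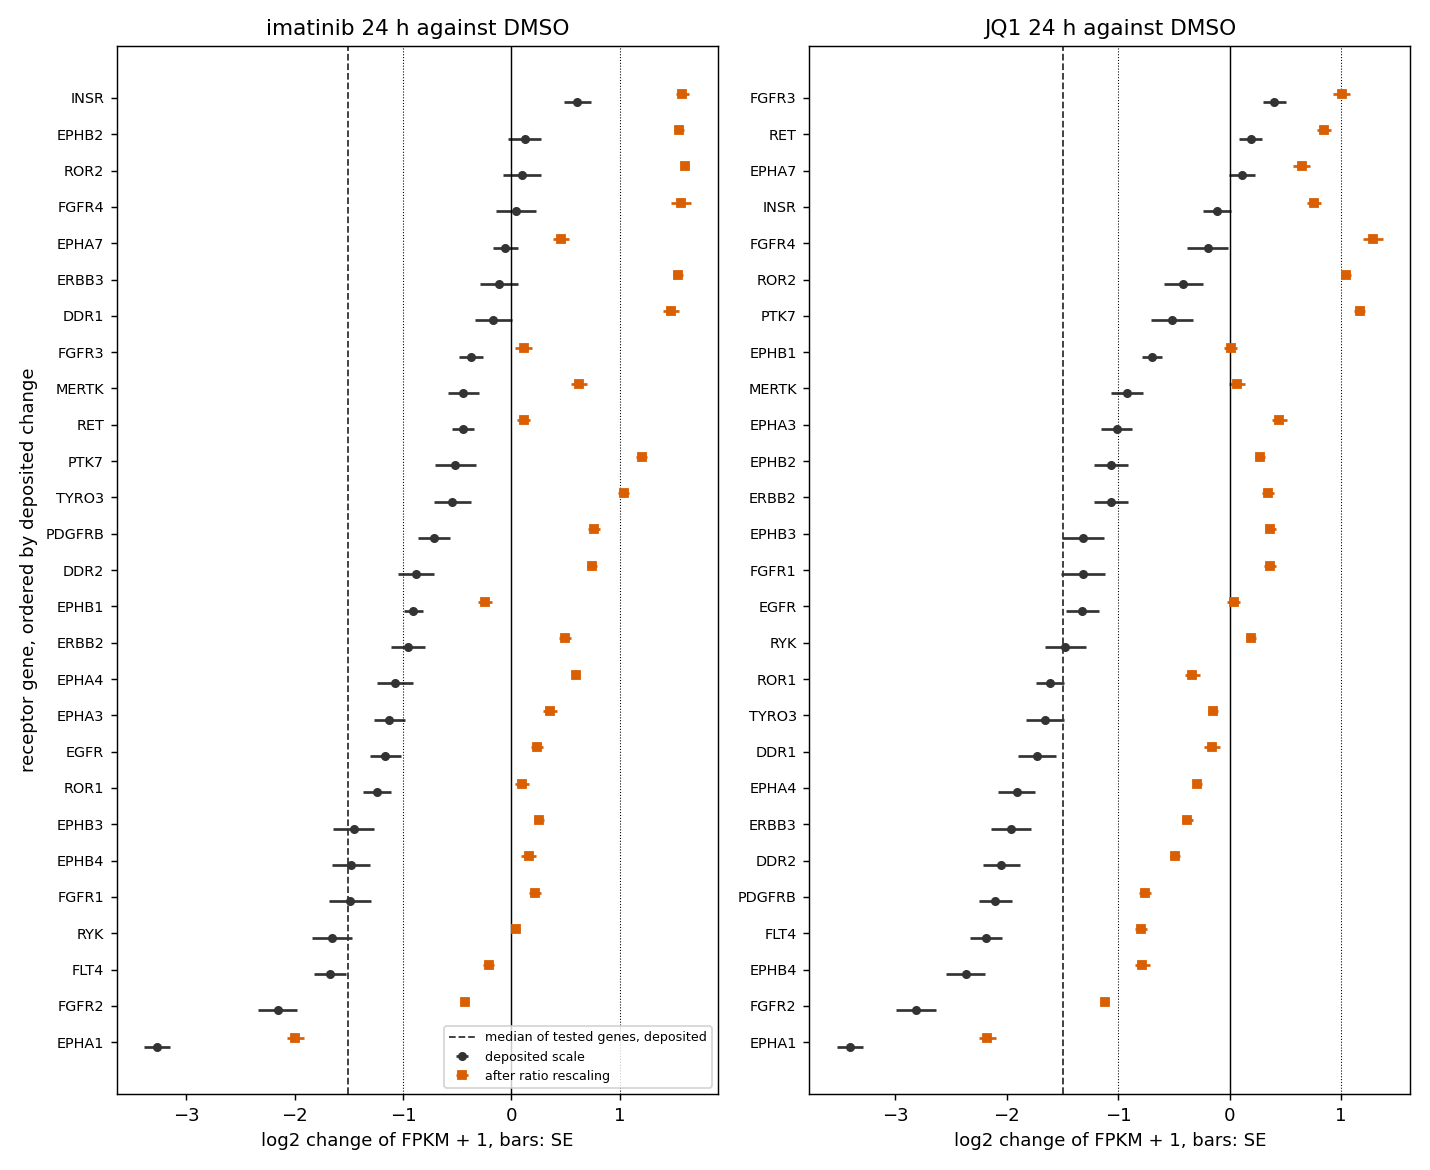
Log2 change of FPKM + 1 against DMSO with its SE for the 27 tested receptors after 24 h of imatinib (left) and JQ1 (right), on the deposited scale (circles) and rescaled (squares). Dotted lines mark a change of 1 in size and the dashed line the median of all tested genes, -1.5 and -1.49, and EPHA1 and FGFR2 are the lowest in both panels.

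With both drugs for 24 h, 19 of 27 receptors fell and 0 rose on the deposited scale. That is 70.4%, where 86.0% of all tested genes fell and 0.235% rose. The 19 were the 18 that fell with JQ1 for 24 h and MERTK, a receptor for GAS6 and PROS1, and the 3 comparisons at 24 h share the DMSO libraries. EPHA1 read 0.0603, 0.0732 and 0.0653 FPKM, at or under the table's floor, so no fold is given, and its log2 change was -3.61 ± 0.12. FGFR2 read 16.3, 27.5 and 20.7, which is 15.5-fold below DMSO, a log2 change of -3.90 ± 0.18 (limma, adjusted p = 7.3e-15). Combination replicate 2 was the highest and replicate 1 the lowest of the 3 libraries for FGFR2, as for the receptor sum.

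EPHB4 read 2.10, 3.86 and 2.39 FPKM with both drugs and was 11.1-fold below DMSO. FLT4 was 10.8-fold, PDGFRB 10.7-fold, DDR1 9.30-fold, ROR1 7.96-fold and DDR2 7.46-fold lower. ERBB3 read 3.16, 5.45 and 4.18, or 6.31-fold lower, and EPHB3 read 15.7, 26.9 and 17.5, or 5.07-fold lower.

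FGFR1 read 17.6, 30.9 and 19.4 FPKM with both drugs and RYK read 12.6, 21.9 and 16.2, or 4.0-fold and 4.62-fold lower than DMSO. After rescaling, 8 of the 19 had the opposite sign: EPHB3 0.079, MERTK 0.20, RYK 0.21, EGFR 0.28, ERBB2 0.41, FGFR1 0.41, EPHB2 0.82 and EPHA3 0.96. PDGFRB was at -0.71 and not called. PTK7 read 52.9, 90.2 and 59.0, all below DMSO, with a deposited change of -0.83 ± 0.19. The EPHB2 call of -1.09 was lost without combination replicate 1 (-0.94), as was that of EPHA3 (-0.997), and the MERTK call of -1.11 was lost without DMSO replicate 3 (-0.91). After rescaling, FGFR2 (-1.51 ± 0.03) and EPHA1 (-2.35 ± 0.08) fell, and 6 receptors rose, FGFR3, FGFR4, INSR, EPHA7, ROR2 and PTK7, where 10.1% of genes fell and 9.17% rose. The rise of FGFR3 is a description, since FGFR3 passed the filter through libraries with JQ1.

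Set against each other at 24 h, JQ1 gave lower levels than imatinib for 6 of 27 receptors and higher levels for 0. That is 22.2%, where 4.88% of all tested genes were lower with JQ1 and 3.59% higher, and the same 6 were called after rescaling, where the shares were 6.09% and 3.57%. The 6 were ERBB3, DDR1, PDGFRB, EPHB2, DDR2 and TYRO3. ERBB3 had a mean of 6.09 ± 1.16 FPKM with JQ1 and 24.4 ± 1.74 with imatinib, 4.0-fold apart, a log2 difference of -1.85 ± 0.18 (limma, adjusted p = 3.3e-08). PDGFRB had 1.31 ± 0.289 against 5.02 ± 0.0711, 3.84-fold apart. DDR1 had 6.17 ± 1.48 against 19.9 ± 0.218, 3.22-fold apart.

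In each of the 6, every JQ1 library lay below every imatinib library. DDR2 and EPHB2 were 2.48-fold and 2.76-fold apart, and TYRO3 2.42-fold. The median difference of the 27 receptors was -0.37, beside 0.04 for all tested genes. PTK7 was not called, with a log2 difference of -0.001 ± 0.19, and neither were FGFR1 (0.17 ± 0.20), EPHB3 (0.14 ± 0.19) and RYK (0.18 ± 0.19). FGFR3 (0.77 ± 0.11) and RET (0.63 ± 0.10) were higher in every JQ1 library, at 1.18 against 0.269 FPKM and 1.06 against 0.324. Both were under the size threshold on this scale of FPKM + 1. They passed the filter through libraries with JQ1, so these differences are given as a description. Of the 27 receptors, 15 were lower and 4 higher in every JQ1 library, where 27.55% and 33.0% of all tested genes were.

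**Figure D5:**
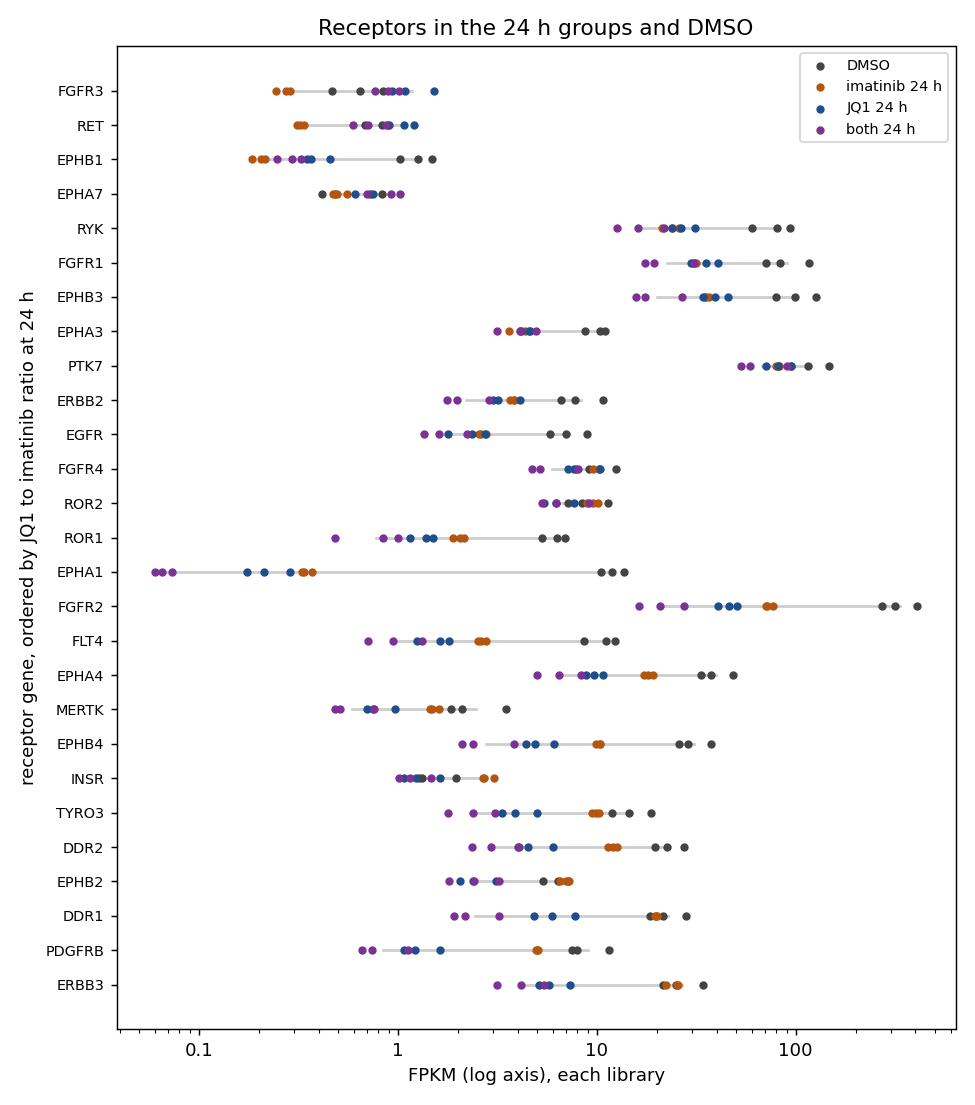
FPKM on a log axis of each DMSO and 24 h library (points) for the 27 tested receptors, with a line joining the lowest and highest group mean, ordered by the ratio of JQ1 to imatinib. At the bottom, ERBB3, PDGFRB, DDR1 and EPHB2 have imatinib libraries well above the JQ1 and combination libraries.

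With both drugs for 24 h, 9 of 27 receptors were lower than with imatinib alone and 0 were higher. That is 33.3%, where 14.5% of all tested genes were lower and 0.423% higher. DDR1 was 8.12-fold lower with both than with imatinib, PDGFRB 5.95-fold, ERBB3 5.72-fold, TYRO3 4.09-fold, DDR2 3.87-fold, EPHB4 3.68-fold, FGFR2 3.40-fold, EPHB2 2.80-fold and EPHA4 2.76-fold. The DDR1 log2 difference was -2.62 ± 0.17 (limma, adjusted p = 6.2e-11) and -2.16 ± 0.07 rescaled. After rescaling 7 of the 9 kept the call, all except EPHA4 (-0.76) and EPHB2 (-0.73), where 5.58% of genes were lower. FGFR3 was higher (1.11 ± 0.08), where 2.37% of genes were, which is a description because it passed the filter through libraries with JQ1.

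Relative to JQ1 alone, 2 of 27 receptors were lower with both drugs, FGFR2 and DDR1, and 0 were higher. That is 7.41%, where 7.35% of all tested genes were lower and 0.0470% higher. FGFR2 was 2.14-fold lower, a log2 difference of -1.09 ± 0.18, and DDR1 2.52-fold lower, at -1.05 ± 0.17, with all combination libraries below all JQ1 libraries. Both calls are near the threshold: without combination replicate 1 the differences were -0.91 and -0.94 and 0 calls were left, and without JQ1 24 h replicate 3 DDR1 was at -0.90 and 1 call was left. After rescaling 0 receptors were called in either direction, where 0.814% of genes were lower and 0.227% higher, and FGFR2 and DDR1 had differences of -0.39 ± 0.03 and -0.53 ± 0.07.

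Between 6 h and 24 h, few receptors were called. With imatinib, 0 of 27 rose and 0 fell on the deposited scale, where 33.4% of all tested genes fell and 0.501% rose. In 21 receptors every 24 h library lay below every 6 h library and in 2 above, where 84.5% and 4.41% of all tested genes did. EPHB3 was nearest to a call, at -0.99 ± 0.19, and 1 fall was called without imatinib 6 h replicate 1 or 2, or without imatinib 24 h replicate 2. After rescaling EPHB2 (1.29 ± 0.05) and DDR1 (1.02 ± 0.07) were higher at 24 h, where 3.98% of genes rose and 4.38% fell, and DDR1 was at 0.95 without imatinib 6 h replicate 3 and 0.98 without imatinib 24 h replicate 1. With JQ1, 1 receptor was higher at 24 h than at 6 h, ROR2, and 1 was lower, FLT4, where 0.509% of all genes rose and 14.2% fell.

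ROR2 read 2.67, 2.40 and 2.79 FPKM after 6 h of JQ1 and 5.45, 6.26 and 7.65 after 24 h, all above. It was 2.46-fold higher, a log2 difference of 1.03 ± 0.18 (limma, adjusted p = 4.8e-05) and 1.5 ± 0.04 rescaled, where 2.66% of genes rose and 3.45% fell. Without JQ1 6 h replicate 2 the deposited difference was 0.99 and without JQ1 24 h replicate 3 it was 0.92, so 0 rises were then called. FLT4 went from 4.74 ± 0.551 to 1.56 ± 0.290 FPKM, 3.03-fold lower, a log2 difference of -1.17 ± 0.14 and -0.78 ± 0.05 rescaled, which is not called.

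Of 59 listed ligands of these receptors, 35 were tested. At 6 h on the deposited scale 9 fell with imatinib and 13 with JQ1, and 0 rose. At 24 h 20 fell with imatinib, 28 with JQ1 and 30 with both, and 0 rose. Of all tested genes 20.0% and 49.8% fell with imatinib and JQ1 at 6 h, and 72.1%, 75.3% and 86.0% with imatinib, JQ1 and both at 24 h, and the counts of every list below stand beside these shares. After rescaling, 7 ligands rose and 2 fell with imatinib at 24 h, 0 rose and 7 fell with JQ1, and 1 rose and 6 fell with both. Of all tested genes, 8.80% then rose and 8.72% fell with imatinib, 5.25% and 6.47% with JQ1, and 9.17% and 10.1% with both. At 6 h the rescaled shares were 1.22% and 2.08% with imatinib and 2.47% and 2.57% with JQ1. The rescaled counts of every list below stand beside these shares. HBEGF, an EGF receptor ligand, went from 8.21 ± 1.82 FPKM in DMSO to 1.25 ± 0.239 after 6 h of imatinib, EFNB2, the ephrin that binds EPHB4, from 82.8 ± 18.5 to 19.7 ± 1.80, and WNT5A, a ROR ligand, from 29.8 ± 5.47 to 7.49 ± 0.723. These 3 were the ligands that also fell after rescaling at that time, at -1.19, -1.22 and -1.07.

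EFNB2 was at 127 ± 7.79 FPKM after 6 h of JQ1, above DMSO by 0.63 on the deposited log2 scale (not called) and by 1.75 rescaled (called), and it was at 39.8 ± 5.05 after 24 h. At 24 h the neuregulin NRG4, a ligand of the ERBB family, was at 1.32 ± 0.169 with JQ1 and 5.0 ± 0.329 with imatinib, a log2 difference of -1.37 ± 0.15 and -1.5 rescaled. VEGFB was at 6.95 ± 1.30 against 26.5 ± 0.344, and EFNB3 at 2.42 ± 0.433 against 8.93 ± 0.367, both lower with JQ1 on either scale. In all, 8 of 35 ligands were lower with JQ1 than with imatinib at 24 h and 0 higher. Of all tested genes, 4.88% were lower and 3.59% higher. After rescaling 9 ligands were lower and 0 higher, where the shares of all tested genes were 6.09% and 3.57%. GDNF, which signals through RET, was at 53.9 ± 10.7 in DMSO, 7.48 ± 0.898 with JQ1 and 3.71 ± 1.02 with both.

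Co-receptors and partners were tested for 12 of 16 listed genes, of which 7 fell with imatinib, 9 with JQ1 and 10 with both at 24 h, and 0 rose. After rescaling, 3 rose and 2 fell with imatinib, 1 rose and 2 fell with JQ1, and 1 rose and 4 fell with both. SDC1, a heparan sulfate proteoglycan, went from 44.0 ± 11.1 FPKM in DMSO to 2.04 ± 0.155 with imatinib for 24 h, a log2 change of -3.86 ± 0.18 and -2.29 rescaled, and was at 6.56 ± 1.18 with JQ1. NRP2, a co-receptor for VEGF family ligands, went from 38.7 ± 6.64 to 3.21 ± 0.716 with JQ1 and was at 12.7 ± 0.645 with imatinib. The 2 drugs thus differed in both genes in opposite directions, with log2 differences of JQ1 from imatinib of 1.30 for SDC1 and -1.71 for NRP2. CD44 fell in all 5 comparisons with DMSO, from 28.6 ± 5.58 to 1.75 ± 0.516 with both drugs.

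Adaptors and proximal effectors were tested for 27 of 31 listed genes, of which 6 fell with imatinib and 13 with JQ1 at 6 h, and 19, 21 and 24 fell at 24 h with imatinib, JQ1 and the combination. PLCG2 was the 1 that rose in these comparisons, with 6 h of JQ1 (log2 change 1.15). After rescaling, at most 1 fell and at most 3 rose in any comparison with DMSO. DOK1, a docking protein, went from 132 ± 31.9 FPKM in DMSO to 51.1 ± 4.19 after 6 h of imatinib and to 18.1 ± 0.562, 17.2 ± 2.52 and 8.33 ± 3.24 in the 24 h groups with imatinib, JQ1 and both. SHC2, an SHC-family adaptor, was at 14.9 ± 0.591 with imatinib and 3.61 ± 0.681 with JQ1 at 24 h, a log2 difference of -1.79 ± 0.18 and -1.88 rescaled.

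Negative regulators, such as ubiquitin ligases, phosphatases and SOCS proteins, were tested for 17 of 18 listed genes. Of these, 4 fell with imatinib and 6 with JQ1 at 6 h, and 12, 13 and 14 at 24 h with imatinib, JQ1 and both, and 0 rose. The ubiquitin ligase CBL went from 9.49 ± 1.81 FPKM in DMSO to 3.78 ± 0.403 and 1.84 ± 0.199 after 6 h and 24 h of imatinib. SOCS2 went from 18.4 ± 2.69 to 8.60 ± 0.821 with imatinib and 5.56 ± 0.669 with JQ1 at 6 h. After rescaling, 0 of the 17 fell and at most 1 rose in any comparison with DMSO, and SOCS2 was lower with JQ1 than with imatinib at 24 h (-1.09). The medians of the 4 lists at 24 h lay between -1.09 and -1.57 with imatinib, and between -1.43 and -1.5 with JQ1, beside -1.5 and -1.49 for all tested genes.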

How the data were processed

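Per the labels' protocols, ERCC spike-ins were added to RNA in proportion to cell number, and a stranded poly(A) kit and single 75-base reads were used. The submitters' processing notes name STAR, Cufflinks and hg19, and versions are not given in the sources used here. The authors deposited FPKM values per gene and library. The 24 spike-ins with a mean of at least 5 had median library deviations between -0.02 and 0.04 log2, so the values were taken as spike-in scaled. Read depth is unknown, and the error of each value is the spread over its group. Values lay above 0, with genes of little or no signal at a floor near 0.1. That floor is not a strict minimum, since the lowest value was 0.0383. Pearson r within groups was 0.979 to 0.989. The table had 23713 entries, of which 92 were spike-ins, and 28 gene names had become dates. 0 columns lacked a label, and 1 JQ1 24 h column whose number is in no title was used without a replicate number.

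A gene was tested where 3 or more libraries reached 1 FPKM (12771 genes). A single limma model (version 3.58.1 in R 4.3.3) with an intensity trend was fitted to log2(FPKM + 1) with a mean per group, with 12 residual degrees of freedom, and two-sided p-values were Benjamini-Hochberg adjusted over all tested genes in each of 10 comparisons. The code was tested on simulated data. The pseudocount of 1 makes the log2 changes of low genes smaller than the ratio of the values. Receptors given in every library have a mean of at least 5 FPKM in a group and a call against DMSO on both scales, or are among the 5 highest in DMSO, and DDR1, DDR2, PDGFRB, TYRO3, EPHB2, ROR2, INSR, FGFR3 and FGFR4 were added after their values were seen. Partner genes named are up to 4 called genes of largest size per list and comparison, at 5 FPKM or more, with SOCS2, EFNB2 and PLCG2 also given where outside that rule. The members, lists and rules were chosen with earlier results of these data known. Alternatives were other pseudocounts, filters and scalings, a replicate block, a fit of the compared groups only, no size threshold, and leaving out each library.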

Additional observations from a re-analysis of the deposited data

Results flagged for a closer look

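On the deposited scale, 2 receptors had a change against DMSO that differed between 6 h and 24 h of JQ1 by the direct test of that difference. ROR2 had a log2 difference of 1.03 between 24 h and 6 h of JQ1, and was higher in 3 of 3 libraries at 24 h. FLT4 had a log2 difference of -1.17, and was lower in 3 of 3 libraries. For imatinib the same test called 0 receptors in the limma fit on that scale, and 1 fall without any 1 of 3 libraries. After rescaling it called EPHB2 (1.29) and DDR1 (1.02) for imatinib, and for JQ1 it called ROR2 and not FLT4 (-0.78).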

How the results depend on the processing

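Read depth is unknown, and the scale sets most calls. All 86 receptor calls on the deposited scale kept their direction with a pseudocount of 0.1 FPKM, no filter on low values, no size threshold, a fit of the compared groups only and the replicate block. These are weak checks, since leaving out the filter, the size threshold or the other groups does not alter a log2 change. A smaller pseudocount makes it larger. After ratio rescaling 24 of the 86 kept the call, 38 lost it and 24 changed sign, and the cause was not tested beyond the scale itself. The block was set on replicate numbers that do not pair the libraries: same-number pairs had a median correlation of deviations of -0.03, 4 of 40 exceeded 0.1, and 2 of 17 libraries correlated best with their own number. With the block, the falls for both drugs against JQ1 numbered 3 instead of 2, and no other count on the deposited scale changed.

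Ratio rescaling gave the opposite sign for the following falls at 24 h. With imatinib, the log2 changes were EGFR 0.23, EPHA3 0.36, EPHA4 0.60, EPHB3 0.26, EPHB4 0.16, FGFR1 0.22, ROR1 0.10 and RYK 0.041. With JQ1, the log2 changes were EGFR 0.034, EPHA3 0.45, EPHB2 0.27, EPHB3 0.36, ERBB2 0.35, FGFR1 0.36 and RYK 0.20. With both drugs, the log2 changes were EGFR 0.28, EPHA3 0.96, EPHB2 0.82, EPHB3 0.079, ERBB2 0.41, FGFR1 0.41, MERTK 0.20 and RYK 0.21. After 6 h of JQ1, EPHA4 was at 0.031. Adding the replicate block to ratio rescaling left these values as they were, except with JQ1 for 24 h: EGFR 0.10, EPHA3 0.42, EPHB2 0.30, EPHB3 0.37, ERBB2 0.35, FGFR1 0.39 and RYK 0.18. Rescaling to 1 total did so at 24 h for the falls below. With imatinib, the log2 changes were EGFR 0.59, EPHA3 0.74, EPHA4 1.03, EPHB3 0.70, EPHB4 0.58, FGFR1 0.66, FGFR2 0.022, FLT4 0.15, ROR1 0.44 and RYK 0.48. With JQ1, the log2 changes were EGFR 0.11, EPHA3 0.53, EPHB2 0.35, EPHB3 0.46, ERBB2 0.43, FGFR1 0.46 and RYK 0.29. With both drugs, the log2 changes were EGFR 0.37, EPHA3 1.06, EPHB2 0.93, EPHB3 0.20, ERBB2 0.51, FGFR1 0.54, MERTK 0.26 and RYK 0.33. A total without MIR1244 did so at 24 h for these falls. With imatinib, the log2 changes were EGFR 0.30, EPHA3 0.42, EPHA4 0.67, EPHB3 0.33, EPHB4 0.23, FGFR1 0.29, ROR1 0.16 and RYK 0.11. With JQ1, the log2 changes were EPHA3 0.35, EPHB2 0.19, EPHB3 0.25, ERBB2 0.26, FGFR1 0.25 and RYK 0.085. With both drugs, the log2 changes were EGFR 0.16, EPHA3 0.83, EPHB2 0.71, ERBB2 0.29, FGFR1 0.27, MERTK 0.12 and RYK 0.063.

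Counts that moved by more than 1.5 times are as follows. Shares of all tested genes are given above for the deposited scale and ratio rescaling only. Counts under the other settings, here and below, describe how the receptor calls moved and have no such share to be set beside. Ratio rescaling, with or without the replicate block, gave 1 rise and 1 fall for imatinib at 6 h, 3 falls for JQ1 at 6 h, 8 rises and 1 fall for imatinib at 24 h, 4 rises and 2 falls for JQ1 at 24 h, and 6 rises and 2 falls for both. It gave 1 rise for both against imatinib, 0 falls for both against JQ1, 2 rises for imatinib between times and 0 falls for JQ1 between times. Total rescaling gave 1 and 1, 5 falls, 11 and 1, 4 and 2, and 8 and 2 in the same order, then 1 rise for both against imatinib, 0 falls for both against JQ1, 10 falls for JQ1 against imatinib, 6 rises for imatinib between times, and 3 rises and 0 falls for JQ1 between times. Without MIR1244 in the total the counts were 1 and 1, 4 falls, 8 and 1, 2 and 2, and 6 and 3, then 1 rise, 0 falls, 4 rises for imatinib between times and 0 falls for JQ1 between times.

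With a pseudocount of 0.1 there was 1 rise for imatinib at 6 h, 1 rise and 14 falls for both against imatinib, 2 rises for JQ1 against imatinib, 5 falls for imatinib between times and 6 falls for JQ1 between times. With a mean of at least 5 FPKM, which tests fewer genes, there were 3 falls for imatinib and 0 rises for JQ1 at 6 h, 7, 11 and 11 falls for imatinib, JQ1 and both at 24 h, and 0 falls for JQ1 between times. By adjusted p alone, again without a share of all tested genes, there were 3 rises and 15 falls for imatinib at 6 h. JQ1 at 6 h had 2 and 22, imatinib at 24 h had 1 and 20, and there was 1 rise each for JQ1 and for both. By the same rule there were 3 rises and 21 falls for both against imatinib, 15 falls for both against JQ1, 2 and 14 for JQ1 against imatinib, 1 and 17 for imatinib between times and 2 and 12 for JQ1 between times.

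Leaving out each library gave 3 to 6 falls for imatinib and 11 to 15 for JQ1 at 6 h, 10 to 12, 15 to 19 and 17 to 20 for imatinib, JQ1 and both at 24 h, 9 to 10 for both against imatinib and 0 to 3 for both against JQ1. It gave 6 in every fit for JQ1 against imatinib, 0 to 1 falls for imatinib between times, and 0 to 1 rises and 1 fall in every fit for JQ1 between times. Of the refits of single deposited calls 491 kept the call, 25 lost it and 0 changed sign.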
